A study of Homo sapiens with 4 samples.

Results

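The linker histone H1 genes were followed from total RNA into RNA that came down with the deacylase SIRT7. The rule takes 7 of the table's 23615 genes, of which 6 are described, listed in the table as HIST1H1A, HIST1H1B, HIST1H1C, HIST1H1D, HIST1H1E and H1FX. They were chosen by symbol and not by any measured value, though with earlier results of these data known. The HIST1H1 genes, 5 in number, are the replication-dependent class, and H1FX is of the replacement class. RefSeq's current symbols for these 6 are H1-1, H1-5, H1-2, H1-3, H1-4 and H1-10, in the same order.

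The measured material was RNA from HEK293T, a human embryonic kidney line that carries the SV40 large T antigen. The RIP libraries, 2 in number, held RNA recovered by RNA immunoprecipitation, in which a protein is pulled from a lysate and the RNA bound to it is sequenced. Here the bait was SIRT7 with a Flag tag, held by an anti-Flag affinity gel, and its RNA was released with proteinase K. The input libraries, also 2, held total RNA of the same line. Both groups came from cells that stably overexpressed Flag-SIRT7 at passages 10 to 15, without another treatment, and both were depleted of ribosomal RNA, so RNA with and without a poly(A) tail could be sequenced. The promoter of the construct, and whether the line was 1 clone, are not given in the labels. No pull-down from cells without the tag was analysed here, so RNA that stuck to the gel alone cannot be told apart from RNA held by SIRT7. The labels do not say that replicates came from separate cultures, so p-values measure the spread between these libraries, which may be technical.

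H1 proteins sit where DNA enters and leaves the nucleosome and help to fold chromatin. The HIST1H1 genes are expressed mainly in S phase, lack introns and give short mRNAs that end in a stem-loop in place of a poly(A) tail. Replacement H1 genes such as H1FX are expressed outside S phase too and give longer, polyadenylated mRNAs. HIST1H1A is known to be active in few cell types.

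The promoters are shown first, because 4 of them share 1 run of letters while their mRNAs lay far apart in level. RefSeq's table of promoters (build GRCh38.p14) held all 6 of these genes, and the 200 bases before the annotated start of 5 of them are printed 5′ to 3′ on the gene's strand. Capitals mark, on that strand, the H1 box AAACACA, the CCAAT box, and the TATA letters TATAAA or TATATA, which can overlap each other.
HIST1H1C promoter: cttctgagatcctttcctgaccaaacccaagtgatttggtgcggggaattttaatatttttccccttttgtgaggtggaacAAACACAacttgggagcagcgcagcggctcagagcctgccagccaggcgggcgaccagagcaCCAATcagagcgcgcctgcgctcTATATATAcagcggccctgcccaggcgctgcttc
HIST1H1E promoter: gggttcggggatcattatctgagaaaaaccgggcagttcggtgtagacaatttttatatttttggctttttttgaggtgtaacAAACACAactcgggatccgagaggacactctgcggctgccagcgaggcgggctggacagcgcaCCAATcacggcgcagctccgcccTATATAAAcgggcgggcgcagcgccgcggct
HIST1H1D promoter: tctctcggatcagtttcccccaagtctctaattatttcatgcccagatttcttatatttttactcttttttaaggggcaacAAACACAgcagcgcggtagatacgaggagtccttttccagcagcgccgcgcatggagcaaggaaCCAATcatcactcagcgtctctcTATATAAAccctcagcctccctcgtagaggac
HIST1H1B promoter: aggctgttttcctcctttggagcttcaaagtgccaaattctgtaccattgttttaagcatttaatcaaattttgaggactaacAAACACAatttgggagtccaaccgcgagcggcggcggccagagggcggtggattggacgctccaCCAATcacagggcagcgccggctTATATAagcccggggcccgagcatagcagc
H1FX promoter: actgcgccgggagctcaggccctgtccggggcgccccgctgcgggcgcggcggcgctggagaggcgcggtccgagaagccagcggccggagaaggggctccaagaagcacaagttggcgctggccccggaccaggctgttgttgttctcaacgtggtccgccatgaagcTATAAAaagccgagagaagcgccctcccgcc
The stretches lie at chr6:26056471-26056670 on the minus strand for HIST1H1C, chr6:26156129-26156328 on the plus strand for HIST1H1E and chr6:26234988-26235187 on the minus strand for HIST1H1D. That of HIST1H1B lies at chr6:27867589-27867788 on the minus strand, and that of H1FX at chr3:129316287-129316486 on the minus strand. The H1 box nearest to the start began 119 bases before the start in HIST1H1C and HIST1H1D and 117 bases before it in HIST1H1E and HIST1H1B, and a CCAAT box followed between 53 and 57 bases before the start. In these 4 genes the box lay in the longer run AACAAACACA. In the 250 bases searched before each start, on both strands, that run was found in 0.131% of 35116 promoters, AAACACA in 4.82%, CCAAT in 32.0%, TATAAA in 10.7% and TATATA in 3.73%. HIST1H1A held CCAAT and TATAAA at 54 and 31 bases before the start, and AAACACA only on the opposite strand, 183 bases before it. H1FX held TATAAA at 31 bases before the start and neither AAACACA nor CCAAT in the window. A match of letters describes the window and is no measure of binding.

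HIST1H1C was the most abundant H1 mRNA per length in every library. FPKM, in which the authors divided scaled fragments by transcript length and depth, allows levels of different genes to be set side by side. HIST1H1C had 6344 and 6585 FPKM in the RIP libraries, against 2430 and 2914 FPKM in the input libraries. HIST1H1E followed with 3704 and 3932 FPKM in RIP, against 1781 and 2230 FPKM in input. HIST1H1D was lower, at 919.1 and 940.8 FPKM in RIP, against 349.0 and 444.9 FPKM in input. For these 3 genes both RIP libraries lay above both input libraries. The replacement gene H1FX had 208.0 and 197.2 FPKM in RIP, against 106.1 and 125.5 FPKM in input, again without overlap. Of all 14555 tested genes 44.5% had both RIP libraries above both input libraries in FPKM and 44.4% had both below, so groups that did not overlap were common. FPKM summed over all tested genes stood at 1308000 and 1313000 in RIP, against 448900 and 487500 in input. The order of levels, HIST1H1C, HIST1H1E, HIST1H1D and H1FX, was the same in each library, and neighbours in it lay further apart than the 2 libraries of a group did.

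**Figure D1:**
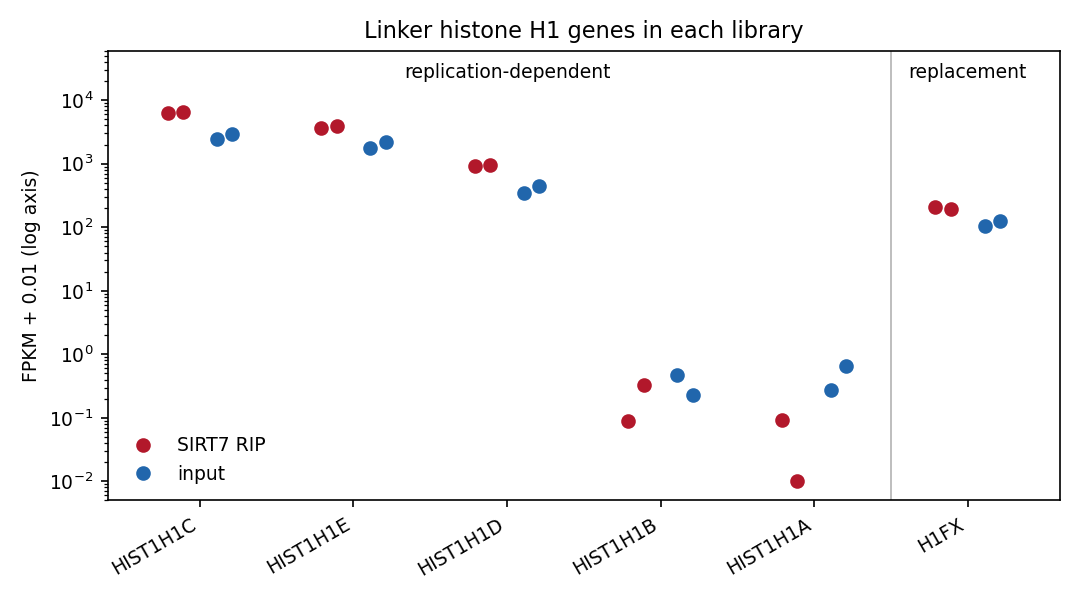
FPKM of 6 H1 genes (FPKM + 0.01, log axis), 1 point per library, with RIP points left of input points for each gene. HIST1H1C, HIST1H1E, HIST1H1D and H1FX lie higher in RIP, and HIST1H1A and HIST1H1B lie below 1 FPKM in all 4 libraries.

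HIST1H1A and HIST1H1B were listed with few fragments. The annotation and the treatment of fragments that match several genes are not stated, so low expression and the assignment of fragments cannot be told apart for them. HIST1H1A had 1 and 0 fragments in RIP, against 4 and 9 fragments in input. HIST1H1B had 1 and 4 fragments in RIP, against 7 and 3 fragments in input. Neither gene passed the filter on low counts, so neither was tested. Scaled to library sizes adjusted by TMM, the summed fragments gave a RIP over input ratio of 0.0876 for HIST1H1A (95% exact interval 0.00206 to 0.583). That of HIST1H1B was 0.569 (0.153 to 1.83), and both intervals cover counting error only. On the log2 scale these ratios were -3.51 and -0.81, and with library totals they were -4.24 and -1.54. HIST1H1B shares with HIST1H1C, HIST1H1D and HIST1H1E the run AACAAACACA shown in its promoter above, and stood at 0.4623 and 0.2147 FPKM in the input libraries. Of the other H1 genes in the table, the testis gene HIST1H1T had 31 and 41 fragments in RIP, against 21 and 10 fragments in input. It rose 2.64-fold with TMM scaling (edgeR adjusted p = 0.002697) and lost that call with library totals (0.1115) and with the length trend of all genes taken out (-0.06 on the log2 scale, adjusted p = 0.9017). H1FNT, H1FOO and HILS1, known from germ cells, had at most 2 fragments in any library.

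The comparison asks which H1 mRNAs were recovered with SIRT7 above or below their level in total RNA. With TMM scaling, which sets the bulk of genes to no change, edgeR's quasi-likelihood test called all 4 of these H1 genes that were tested higher in RIP. Over all 14555 tested genes 38.0% were called higher and 39.7% lower, so a call in either direction was common. HIST1H1C rose 2.39-fold (log2 fold change 1.26, SE 0.0802, adjusted p = 7.965e-10 by edgeR with Benjamini-Hochberg adjustment, as for all adjusted p-values here). HIST1H1D rose 2.32-fold (1.21, SE 0.0895, edgeR adjusted p = 4.549e-09). HIST1H1E rose 1.88-fold (0.91, SE 0.0874, edgeR adjusted p = 1.025e-07). The replacement gene H1FX rose 1.73-fold (0.79, SE 0.0784, edgeR adjusted p = 1.557e-07).

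These directions depend on how the libraries are scaled and on transcript length. Scaled by library totals alone, the median of all tested genes lay at -0.76 on the log2 scale, against -0.03 with TMM. On library totals HIST1H1C, HIST1H1D and HIST1H1E stood at 0.53, 0.48 and 0.18, still called higher, the last with an edgeR adjusted p of 0.04731. On that scale 17.0% of all tested genes were called higher and 65.5% lower. H1FX stood at 0.06 there and lost its call (edgeR adjusted p = 0.4471). In shares of all fragments, the HIST1H1 genes took 0.5028% and 0.5261% in RIP, against 0.3589% and 0.4256% in input. H1FX took 0.02254% and 0.02140% in RIP, against 0.01964% and 0.02246% in input, where the groups overlapped.

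Length moved with the fold change over the whole table, with Spearman's rho at -0.60 across 14555 genes, which are not independent replicates. The effective length, taken from the table as scaled fragments over FPKM and given in units of the median tested gene, was 0.198 for HIST1H1C, 0.214 for HIST1H1D and 0.217 for HIST1H1E. It was 0.486 for H1FX, so that among these 4 genes each longer one had a lower fold change. Genes near HIST1H1C in length (378 genes, with the shorter of the pair at least 0.8 times the longer) had a median log2 fold change of 1.44, with quartiles of 0.99 and 1.87, and 83.1% of them were called higher. HIST1H1C lay 0.19 below that median and HIST1H1D 0.22 below the median of its own 452 neighbours in length. HIST1H1E lay 0.52 below the median of 464 genes. H1FX lay 0.12 above the median of its 1940 neighbours. Of genes of like length, 39.2% had a smaller log2 fold change than HIST1H1C, 38.3% than HIST1H1D, 23.5% than HIST1H1E and 55.2% than H1FX.

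**Figure D2:**
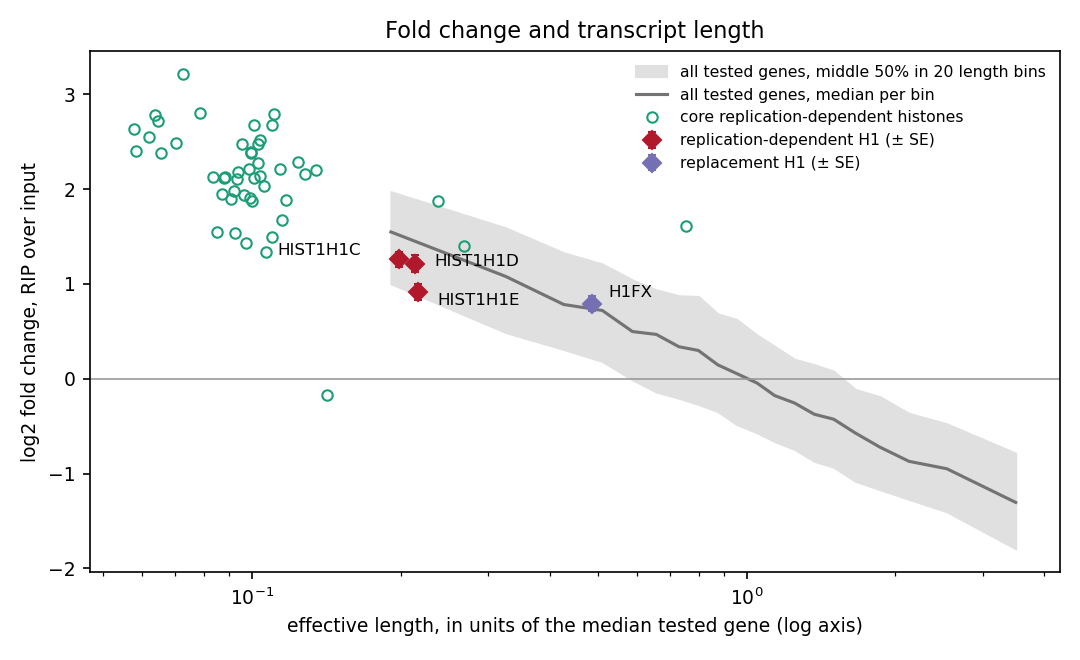
Log2 fold change of RIP over input (TMM scaling) against effective length in units of the median tested gene (log axis). The grey line and band are the median and quartile range of all tested genes in 20 length bins, open circles are core replication-dependent histones, and diamonds are H1 genes with their SE. HIST1H1C, HIST1H1D and HIST1H1E lie under the grey line and H1FX just above it.

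With the length trend taken out as offsets in the same edgeR fit, the 3 replication-dependent genes changed direction. HIST1H1C then fell by 0.19 on the log2 scale (SE 0.0516, edgeR adjusted p = 0.003522), HIST1H1D fell by 0.18 (SE 0.0643, edgeR adjusted p = 0.01941) and HIST1H1E fell by 0.47 (SE 0.0591, edgeR adjusted p = 1.363e-06). H1FX stood at 0.05 (SE 0.0625, edgeR adjusted p = 0.5064), which is not a call. In that fit 34.7% of all genes were called higher and 35.5% lower, while 0 of these 4 H1 genes were called higher and 3 lower.

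**Figure D3:**
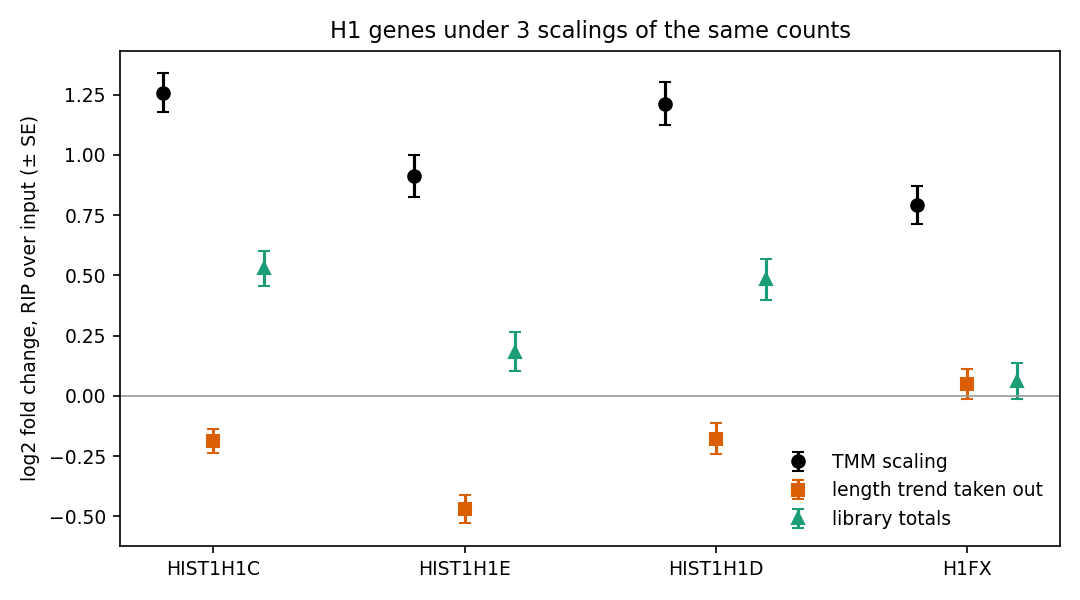
Log2 fold change of RIP over input with its SE for 4 tested H1 genes under TMM scaling (circles), with the length trend taken out (squares) and under library totals (triangles). The 3 HIST1H1 genes lie above 0 under both scalings of the counts and below 0 once the length trend is taken out. H1FX lies above 0 under TMM scaling, and its SE reaches across 0 in the other fits.

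Ratios between members within a library do not depend on scaling. The HIST1H1 genes summed had a log2 ratio over H1FX of 4.479 and 4.620 in RIP fragments, against 4.192 and 4.244 in input fragments. The difference between the group means was 0.33, larger than the spread within either group (SD 0.0993 in RIP and 0.0370 in input, n = 2 each). H1FX has the longer mRNA, and the part of length in this difference was not tested. Genes of like length had median log2 fold changes of 1.44 for HIST1H1C and 1.43 for HIST1H1D and HIST1H1E, against 0.67 for H1FX. With the length trend taken out, HIST1H1C, HIST1H1D and HIST1H1E stood at -0.19, -0.18 and -0.47, against 0.05 for H1FX. In that fit every tested HIST1H1 gene lay below H1FX, the opposite order to the fragment ratio. HIST1H1C over H1FX fragments stood at 12.4 and 13.6 in RIP, against 9.31 and 9.44 in input, without overlap. HIST1H1E over H1FX fragments stood at 7.96 and 8.91 in RIP, against 7.51 and 7.95 in input, again without overlap but with the lower RIP library close to the higher input library. The smallest two-sided p of an exact permutation test with 2 libraries in each group is 0.333, so such ratios are given as values.

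Among the replication-dependent genes, which differ little in length, HIST1H1C held a larger part and HIST1H1E a smaller part in RIP than in input. HIST1H1C over HIST1H1E fragments stood at 1.557 and 1.523 in RIP, against 1.241 and 1.188 in input. HIST1H1D over HIST1H1E fragments stood at 0.2447 and 0.2360 in RIP, against 0.1933 and 0.1968 in input. In both ratios the groups did not overlap. HIST1H1C over HIST1H1D fragments stood at 6.363 and 6.453 in RIP, against 6.418 and 6.038 in input, where the groups overlapped. As shares of the summed FPKM of the 6 H1 genes, HIST1H1C took 56.6% ± 0.188 in RIP and 51.5% ± 0.767 in input, and HIST1H1E 33.4% ± 0.415 in RIP and 38.6% ± 0.606 in input (SD, n = 2 each). HIST1H1D took 8.15% ± 0.108 in RIP and 7.63% ± 0.216 in input, and H1FX 1.78% ± 0.120 in RIP and 2.23% ± 0.0545 in input. The coding sequences of HIST1H1C, HIST1H1D and HIST1H1E are close copies, and the assignment of fragments that match several of them is not stated in the labels, so the split between these 3 is uncertain. All 24 deposited fragment values of these 6 genes were whole numbers, with no decimal part in the table.

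**Figure D4:**
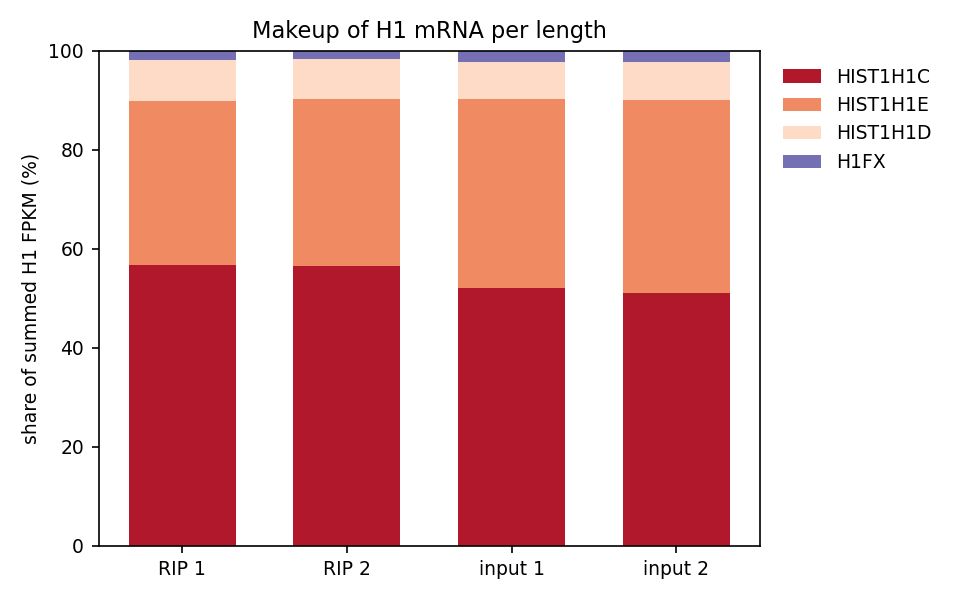
Share of the summed FPKM of 6 H1 genes (%) in each library, RIP bars left of input bars, stacked by gene from HIST1H1C at the bottom to H1FX at the top, with HIST1H1A and HIST1H1B too low to be drawn. HIST1H1C holds 56.76% and 56.50% in RIP, against 52.07% and 50.99% in input, and HIST1H1E the larger part of the rest.

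The input libraries differed in histone mRNA, and in some other genes as well. In CPM on TMM-scaled sizes the second stood 17.7% above the first for HIST1H1C, 25.1% for HIST1H1D, 22.9% for HIST1H1E and 16.2% for H1FX. The same difference was 22.4% for the median core histone and 0.032% for the median tested gene. Genes that are not histones moved too. HMGA1 stood at 176.5 CPM in the first input library and 213.8 CPM in the second, and ZNF503 at 152.3 and 180.1 CPM. CASP8AP2 went the other way, from 92.49 to 75.43 CPM. Between the RIP libraries it ran from -4.98% for H1FX to 6.37% for HIST1H1E. Without the first input library HIST1H1C stood at 1.14 on the log2 scale, and without the second at 1.40, both called.

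With TMM scaling, core histone genes were mostly further above input than H1 genes. The core list was taken by symbol, and a stem-loop end, S phase timing or coding status was not checked for each member. Of 67 core replication-dependent histone genes 48 were tested, with 47 called higher and 0 lower by edgeR, against 38.0% and 39.7% of all tested genes. At an unadjusted edgeR p under 0.05, and by DESeq2, 0 were lower too. Their median log2 fold change was 2.15. Of these 48, 47 lay above HIST1H1C, the H1 gene with the largest fold change. HIST1H3B and HIST1H2AG, the most abundant of them, rose 4.34-fold and 6.90-fold, and HIST2H4B and HIST4H4, which changed the most, rose 9.24-fold and 6.98-fold. HIST2H4B had 72 and 60 fragments in RIP, against 3 and 13 in input, and its fold was 5.53 without input replicate 1 and 25.0 without input replicate 2, called in both fits. Within a library the HIST1H1 genes had 0.1298 and 0.1283 fragments for each core histone fragment in RIP, against 0.2894 and 0.2864 in input. Core histone mRNAs are shorter, with 45 of the 48 below every tested HIST1H1 gene in effective length and a median of 0.0994. With the length trend taken out their median was 0.27, against a median of -0.19 for the 3 replication-dependent H1 genes. In that fit 30 of the 48 were higher and 6 lower, against 34.7% and 35.5% of all tested genes. HIST1H2BK and HIST1H3D, the 2 core histones of effective length near the HIST1H1 genes, stood at 1.87 and 1.40 on the TMM scale. The 3′ ends of their mRNAs were not checked. The 19 core histone genes that were not tested had at most 15 fragments in any library, with the same limit on the assignment of fragments. The difference between the lists themselves was not tested.

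Replacement core histones had 8 of 10 members tested and all 8 higher with TMM scaling, with a median log2 fold change of 1.14. Of all tested genes 38.0% were higher and 39.7% lower in that fit. Which of these mRNAs end in a poly(A) tail, as that of H1FX does, was not checked. The variant H2AFX, known for its part in DNA damage signalling, rose 5.06-fold, H2AFZ 2.91-fold and H3F3B 2.39-fold. After the length correction 6 were higher and 1 lower, against 34.7% and 35.5% of all tested genes. H2AFX, H3F3B and H2AFZ then stood at 1.65, 1.14 and 0.32, against 0.05 for H1FX. With library totals 5 of the 8 were higher and 2 lower, against 17.0% and 65.5% of all tested genes.

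Genes that make histone mRNA split in direction, as all tested genes did. Of 11 factors for histone gene transcription and 3′ end processing, 4 were higher in RIP and 7 lower, against 38.0% and 39.7% of all tested genes. The median log2 fold change was -0.64. Their median effective length was 1.48, and all tested genes in the length bin at 1.5 had a median log2 fold change of -0.43. SLBP, which binds the stem-loop of HIST1H1 mRNAs, rose 1.36-fold, the nuclease gene CPSF3 1.29-fold and LSM10, of the U7 particle, 2.69-fold. CASP8AP2 and NPAT, which act in histone gene transcription, fell by 1.66 and 1.44 on the log2 scale. With the length trend taken out SLBP turned to -0.16, LSM10 and CPSF3 lost their calls (edgeR adjusted p = 0.2811 and 0.1387), and CASP8AP2 and NPAT stayed lower at -0.74 and -0.64. With library totals 1 was higher and 10 lower, against 17.0% and 65.5% of all tested genes, and SLBP turned to -0.29 and CPSF3 to -0.36.

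Among 6 chaperone and import genes for H1 protein, 1 was higher and 4 were lower with TMM scaling (median log2 fold change -0.25). The shares of all tested genes were 38.0% higher and 39.7% lower. PTMA, which codes for prothymosin alpha, rose 1.31-fold but turned to -0.60 with the length trend taken out and to -0.34 with library totals. IPO7, an import receptor of H1, fell by 1.18 on the log2 scale, and NAP1L1, a histone chaperone, fell by 1.02. SET, the other most abundant gene here, stood at -0.15 and did not pass the test (edgeR adjusted p = 0.05469), but did without input replicate 1 (-0.17, edgeR adjusted p = 0.002697) or without input replicate 2 (-0.11, edgeR adjusted p = 0.04066). After the length correction 1 was higher and 5 lower, against 34.7% and 35.5% of all tested genes. With library totals all 6 were lower, against 65.5% of all tested genes.

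HMG proteins, which bind nucleosomes and linker DNA in competition with H1, had 9 of 10 genes higher and 1 lower. The shares over all tested genes were 38.0% and 39.7%. Their median log2 fold change was 0.62 and the median effective length of these 10 genes was 0.659. HMGA1 rose 2.93-fold, HMGN3 2.41-fold, HMGN2 1.92-fold and HMGB1 1.35-fold, and HMGA2 fell by 0.49. With the length trend taken out 5 were higher and 1 lower, against 34.7% and 35.5% of all tested genes. HMGA1, HMGB1 and HMGN2 then stood at 1.10, 0.62 and 0.49, while HMGN3 (edgeR adjusted p = 0.779) and HMGA2 (0.2538) lost their calls. With library totals 4 of the 10 were higher and 5 lower, against 17.0% and 65.5% of all tested genes, and HMGB1 turned to -0.30.

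Across the 4 libraries, genes near HIST1H1C in log2 CPM (Euclidean distance over 4 values, levels not centred) included the actin gene ACTG1 at 0.298 and the enolase gene ENO1 at 0.431. Their log2 fold changes were 0.99 and 1.04. For H1FX the nearest were MDH1 at 0.170, ZNF503 at 0.184 and APEX1 at 0.190. Such likeness over 4 libraries rests on the level and on 1 contrast.

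Facts of the whole table bear on these values. The libraries held 25655455 and 25998032 fragments in RIP and 18131602 and 17310753 in input. SIRT7 rose 37.4-fold, where fragments of the construct and of the cell's own gene count together. All 6 HEK293T markers chosen were tested, with PAX2 near the detection limit at 8 to 14 fragments, while 4 of 5 markers of other cells had at most 3 fragments in any library. Those 5 summed to 156 to 175 fragments in RIP and 149 to 165 in input, nearly all from COL1A1. H1FX lies beside H1FX-AS1, an antisense gene with 192 and 155 fragments in RIP and 143 and 131 in input, and with the strand setting of the counting unknown their reads cannot be told apart. H1FX-AS1 held between 2.79% and 4.02% as many fragments as H1FX.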

How the data were processed

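RNA of 2 RIP and 2 input libraries was sequenced after ribosomal RNA removal, with strand-specific libraries, per the labels' protocols. The submitters' processing notes name cutadapt 1.5, Bowtie2 2.2.6, TopHat2 2.0.13, Cuffdiff 2.2.1 and the build hg19. For the gene annotation, strand setting and treatment of multi-mapped fragments, the tool settings are not stated there. The deposited estimated counts are the authors' fragments per gene before scaling (97.94% whole, with no decimal part), and a second deposited column holds them as a signal scaled by 1 factor per library. FPKM as deposited by the authors further divides that signal by transcript length and depth. The table numbers replicates from 0, which was taken as replicate 1 of the labels.

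Counts were rounded, filtered with filterByExpr (minimum 10, total 15), scaled with TMM and tested over all 14555 genes with edgeR 4.0.16 in R 4.3.3 (glmQLFit, glmQLFTest, group only, Benjamini-Hochberg at 0.05), after a check on simulated counts. The length correction entered a loess of each library's log2 CPM deviations on log2 effective length (span 0.3) as offsets. DESeq2 1.42.0, limma 3.58.1 on log2(FPKM + 1) and log2(FPKM + 0.1), other scalings, a replicate block and leaving out libraries were alternatives. An SE is the log2 fold change over the square root of F. All 4 libraries were kept: replicates differed by 3.40 (RIP) and 6.17 (input) chi-square per gene, more than sampling noise. Members and lists were chosen with earlier results of these data known. Named from each list were its 2 most abundant genes and the 2 with the largest called change in each direction. Mature transcript ends and proteins were not used here. A member, the sums it entered and a gene of like level are not reported here.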

Additional observations from a re-analysis of the deposited data

How the results depend on the processing

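Counts of called genes were 5531 (higher) and 5783 (lower) with TMM scaling, and 2479 (higher) and 9539 (lower) with library totals. Of 44 alternative values for the 4 tested H1 genes described, 39 kept direction and side of the threshold. With the length trend taken out HIST1H1C, HIST1H1D and HIST1H1E turned to -0.19, -0.18 and -0.47, and H1FX lost its call at 0.048. H1FX also lost it with library totals (0.061). These alternatives differ from the reported fit by the length offsets or the scaling alone. Leaving out 1 library at a time gave 1.14 to 1.40 for HIST1H1C, 1.05 to 1.40 for HIST1H1D, 0.77 to 1.09 for HIST1H1E and 0.68 to 0.92 for H1FX. HIST1H1A and HIST1H1B entered only the fits without the filter: HIST1H1A was at -3.24 in edgeR (adjusted p = 0.04326) and -3.52 in DESeq2 (0.1302), HIST1H1B at -0.78 in both (0.4996 and 0.697). Leaving out libraries, the length correction, the block and the FPKM scales gave no value for these 2. The replicate block gave 5580 higher and 5861 lower genes and changed no call of these 4 genes. Deviations of same-numbered libraries correlated at 0.041, and the labels do not say that a number marks a shared culture. HIST1H1A and HIST1H1B had 0 to 9 fragments in each library, which leaves wide counting intervals, and the part of fragment assignment in these low counts was not tested.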

Other observations

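Neighbours in gene order (RefSeq, assembly GRCh38.p14, protein-coding genes) gave further values beside the H1 genes. HIST1H1E lies between HIST1H2AC and HIST1H2BD (current symbol H2BC5). Their mRNAs rose by log2 fold changes of 2.16 and 1.34 (edgeR adjusted p = 9.588e-12 and 1.014e-09), against 0.91 for HIST1H1E. After the length correction they stood at 0.44 and -0.50, against -0.47 for HIST1H1E. HIST1H3E, beside HIST1H1D, rose by 1.43 and HIST1H1D by 1.21, and after the length correction HIST1H3E stood at -0.46, against -0.18 for HIST1H1D. HIST1H1A, listed with few fragments, lies between the ubiquitin ligase gene TRIM38, which fell by 1.03 on the log2 scale (-0.29 after the length correction), and HIST1H3A, which had 17909 and 19745 fragments in RIP and 3877 and 4358 in input. HIST1H1B lies between HIST1H2AL, with 4296 and 5037 fragments in RIP and 1263 and 1631 in input, and HIST1H3I, which is listed at 0 in all 4 libraries. C3orf37, beside H1FX, rose by 1.04 and H1FX by 0.79, and after the length correction they stood at 0.38 and 0.05. These genes were looked up after the H1 values were seen.

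By rank in FPKM, HIST1H1C was gene 45 in RIP and gene 12 in input, and HIST1H1E was gene 76 in RIP and gene 28 in input, although their fold changes with TMM scaling were above 1. HIST1H1D was gene 199 in RIP and gene 170 in input, and H1FX gene 657 in RIP and gene 503 in input. By rank in share of fragments, which is not per length, HIST1H1C was gene 34 in RIP and gene 17 in input and HIST1H1E gene 63 in RIP and gene 29 in input. On that scale HIST1H1D was gene 297 in RIP and gene 436 in input, and H1FX gene 669 in RIP and gene 796 in input, the opposite direction to their FPKM ranks.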
